A study of Mus musculus with 2 samples.

Results

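F10-type cells were the tumor macrophages selected on the log expression of a set of 4 genes that included F10, Clec4d and Il1rn, whose z-score stood higher in them than those of 5 other sets of 4 genes. They numbered 518 of the 2954 cells that passed a macrophage gate and of the 10075 cells analysed. These cells came from subcutaneous YUMMER1.7 tumors, a BRAF-mutant and immunogenic mouse melanoma line, taken 11 days after inoculation into male C57BL/6 hosts aged 8 weeks. The hosts were either WT or Siah2-/-, that is, without the RING finger ubiquitin ligase Siah2. Live CD45+ cells, the leukocytes, were sorted and a smaller amount of CD45- cells was added back before 1 droplet library per genotype was made. Tumors of a genotype entered 1 suspension, and how many is not stated. Genotype, suspension, library and sequencing lane therefore cannot be told apart, and no test over samples was possible. All intervals below are 95% intervals that cover counting error only and say nothing of the spread between mice.

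Tumor macrophages arise mostly from blood monocytes and take on different states within 1 tumor, among them states of antigen presentation, of interferon response and of adaptation to low oxygen. Cells far from vessels switch to glycolysis, export lactate and make growth factors for vessels under the control of the factor HIF1A. Of the genes that defined the F10-type cells, F10 encodes coagulation factor X, Clec4d a C-type lectin receptor of myeloid cells, and Il1rn the secreted antagonist of the interleukin 1 receptor. The prolyl hydroxylases that mark HIF1A for degradation include known substrates of Siah2.

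A cell passed the gate when it had Csf1r, the receptor of a macrophage growth factor, above 0, and had no count of the T cell genes Cd3d, Cd3e and Cd3g, of the natural killer (NK) cell gene Ncr1, or of Flt3 and Cd209a, genes of dendritic cells. For each set the mean of its 4 genes was turned into a z-score over the gated cells of both libraries, and each cell was assigned to the set with the highest z-score. The other sets held Mgl2 with genes of MHC class II, Folr2 with Fcrls, interferon-induced genes, Chil3 with Vcan, and cycling genes. In WT 1664 of 4512 cells passed the gate, and in Siah2-/- 1290 of 5563, or 36.9% (35.5 to 38.3) and 23.2% (22.1 to 24.3). Csf1r itself was above 0 in 59.1% and 55.6% of the cells. A count of Cd3d stood in 601 WT and 1120 Siah2-/- cells with Csf1r, which the gate removed.

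The promoters of genes that set these cells apart are shown for orientation. F10 and Clec4d belonged to the rule, while Egln3, a prolyl hydroxylase that low oxygen induces, and Slc7a11, the cystine transporter, were among the 10 genes most enriched in the F10-type cells. The letters are the 250 bases before the start of transcription in RefSeq on build GRCm38.p6, 5′ to 3′ on the strand of the gene. Capitals mark ACGTG, the core that HIF binds, or TTGCNNAA, the C/EBP motif, on either strand. F10 lay at chr8:13037058-13037307 (+), Clec4d at chr6:123261857-123262106 (+), Egln3 at chr12:54203875-54204124 (-) and Slc7a11 at chr3:50443614-50443863 (-).
F10: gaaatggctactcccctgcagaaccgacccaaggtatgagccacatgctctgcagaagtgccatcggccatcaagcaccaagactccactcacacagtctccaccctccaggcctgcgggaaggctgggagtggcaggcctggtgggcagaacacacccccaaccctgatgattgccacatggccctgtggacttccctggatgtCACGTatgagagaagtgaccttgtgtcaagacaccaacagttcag
Clec4d: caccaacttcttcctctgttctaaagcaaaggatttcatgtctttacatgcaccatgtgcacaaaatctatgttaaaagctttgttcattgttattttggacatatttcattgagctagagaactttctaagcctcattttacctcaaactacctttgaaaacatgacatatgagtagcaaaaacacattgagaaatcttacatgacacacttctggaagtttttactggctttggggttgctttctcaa
Egln3: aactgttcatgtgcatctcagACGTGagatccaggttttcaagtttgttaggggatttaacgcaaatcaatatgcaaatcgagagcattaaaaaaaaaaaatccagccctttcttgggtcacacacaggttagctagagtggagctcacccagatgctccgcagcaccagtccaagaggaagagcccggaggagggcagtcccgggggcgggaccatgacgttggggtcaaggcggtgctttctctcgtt
Slc7a11: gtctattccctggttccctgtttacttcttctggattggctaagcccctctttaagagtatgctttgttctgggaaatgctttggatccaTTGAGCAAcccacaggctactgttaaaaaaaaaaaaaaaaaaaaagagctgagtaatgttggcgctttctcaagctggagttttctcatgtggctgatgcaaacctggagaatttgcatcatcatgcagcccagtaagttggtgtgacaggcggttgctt

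The HIF core stood at position -45 of F10 and at position -229 of Egln3, and the C/EBP motif at position -160 of Slc7a11. None of the 4 motifs searched was found in the window of Clec4d. The other motifs were TGANTCA for AP-1 and TGACNNNGC for Nrf2. Over the 32851 promoters of the RefSeq table, 16.6% held ACGTG, 6.75% TGANTCA, 9.56% TTGCNNAA and 10.2% TGACNNNGC. Counted by gene, 18.5% of 27025 genes had ACGTG before at least 1 start. In the list of hypoxia-induced genes used below, 10 of the 14 genes with a promoter entry had it, and in the list of glycolysis 10 of 18. In the 10 genes most enriched in the F10-type cells it stood in 4 of the 7 with an entry. ACGTG holds a CG pair, and base composition was not matched.

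The labels of the cells were first checked against macrophage markers. F10-type cells had UMIs, the unique molecular identifiers that count transcripts, of 10 of 10 macrophage markers in both libraries. Summed over the list these reached 40855 counts per 1000000 UMIs (CPM) in WT and 31810 in Siah2-/-, against 13861 and 13714 in droplets with at most 100 UMIs, which hold free RNA only. Csf1r is not in that list, since the gate required it. Among the markers of neutrophils, Ly6g, Ngp and Camp were at 0 in both libraries, and the list summed to 36.8 and 174 CPM. In Siah2-/- 1 cell held 71.1% of its S100a9 UMIs, the calprotectin gene of neutrophils. NK markers summed to 118 and 360 CPM, T cell markers to 15.8 and 50.8, melanoma markers to 17.9 and 14.5, and fibroblast markers to 80.9 and 39.8. In the free RNA of the same library each of these 5 lists stood higher. Endothelial markers summed to 28.4 and 50.5 CPM, against 18.9 and 22.0 in the other gated cells and 29.9 and 43.7 in free RNA, and Cdh5 and Plvap were at 0 in WT. Pecam1, which appears below among the enriched genes, belongs to that list. The part of these markers in the results was not tested, and the NK list returns below.

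F10-type cells made up 91 of 1664 gated WT cells and 427 of 1290 gated Siah2-/- cells. This was a share of 5.47% (4.43 to 6.67) in WT and of 33.1% (30.5 to 35.7) in Siah2-/-, a log2 ratio of 2.60 (2.29 to 2.91). Over all cells analysed the shares were 2.02% and 7.68%, with a log2 ratio of 1.93 (1.61 to 2.25), but this denominator depends on how many CD45- cells were added, which is stated in more than 1 way. F10-type cells were the largest of the 6 sets in Siah2-/- and the smallest in WT. The set with the lowest ratio was Folr2 with Fcrls, at 272 WT and 12 Siah2-/- cells. Since shares of gated cells sum to the whole, a higher share of 1 set lowers the others.

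**Figure D1:**
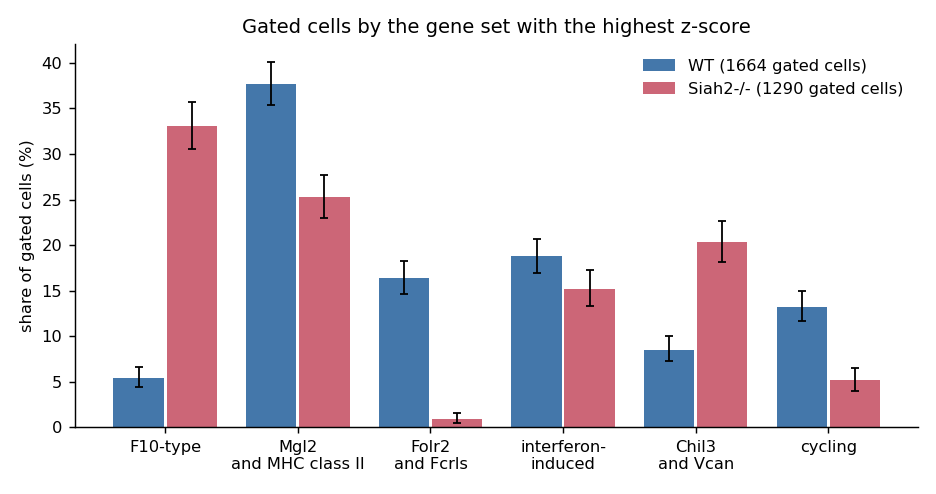
Share of gated cells (y axis, percent) assigned to each of the 6 gene sets (x axis) in the WT and the Siah2-/- library; bars start at 0 and error bars are exact binomial 95% intervals. F10-type cells took 5.47% of the WT and 33.1% of the Siah2-/- gated cells.

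The z-scores were taken over both libraries, so the share depended on where each library stood on that common scale. With z-scores taken within each library, 235 WT and 280 Siah2-/- cells were F10-type, or 14.1% (12.5 to 15.9) and 21.7% (19.5 to 24.1), and the log2 ratio was 0.62 (0.39 to 0.85). With only F10, Clec4d and Il1rn in the set, the ratio was 2.21 (1.92 to 2.51). Requiring a z-score at least 0.5 above the next set gave 42 and 315 cells and a ratio of 3.27 (2.82 to 3.73). When every cell was thinned to 4000 UMIs, the shares were 5.29% and 32.1%.

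**Figure D2:**
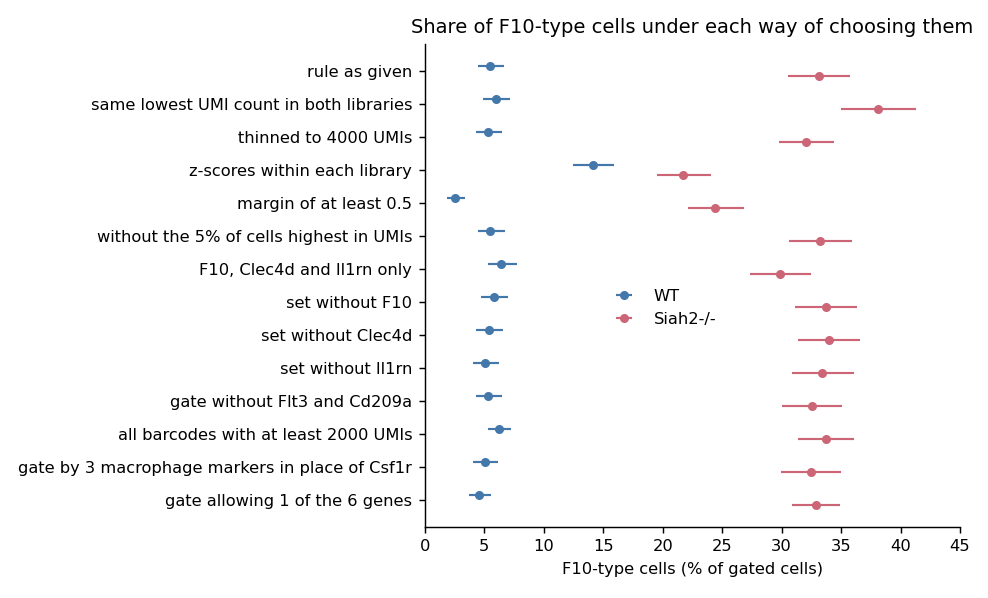
Share of F10-type cells among gated cells (x axis, percent) in each library under the rule as given and 13 other ways of choosing them (y axis); points carry exact binomial 95% intervals. The Siah2-/- share lay above the WT share in each, and the gap was smallest with z-scores within each library, at 14.1% against 21.7%.

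The defining genes chose the cells, so their values in them are a description. F10 stood at 142 CPM in the WT and 258 CPM in the Siah2-/- F10-type cells, against 14.8 and 67.4 in the other gated cells. Clec4d was at 163 and 249 CPM, against 24.8 and 74.7. Il1rn was at 423 and 461 CPM, against 91.7 and 190. All 3 genes were higher in the F10-type than in the other gated cells of each library. Siah2-/- over WT, the log2 ratios within F10-type cells were 0.86 (0.60 to 1.13) for F10, 0.61 (0.37 to 0.87) for Clec4d and 0.12 (-0.03 to 0.28) for Il1rn. Per cell, F10 had a median of 0.757 UMIs per 10000 in WT, with an upper quartile of 2.36, and a median of 1.85 in Siah2-/-, with an upper quartile of 4.31. The median of F10 in the other gated cells was 0 in both libraries.

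At 4000 UMIs per cell, Clec4d was detected in 48.4% of the WT and 53.2% of the Siah2-/- F10-type cells, Il1rn in 58.2% and 63.5%, and F10 in 31.9% and 54.6%. F10 had the lowest share of the 3 in WT and differed most between the libraries. In T cells, which should lack Clec4d, the thinned shares for Clec4d were 0.436% and 2.45%, at a median of 9562.5 and 7304 UMIs before thinning. Without thinning they were 1.16% and 4.72%. The free RNA held Clec4d at 21.9 CPM in WT and 66.3 CPM in Siah2-/-, and F10 at 12.7 and 45.4 CPM. Free RNA of both genes was therefore higher in the library with more F10-type cells, and the level in the F10-type cells lay above it in each.

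**Figure D3:**
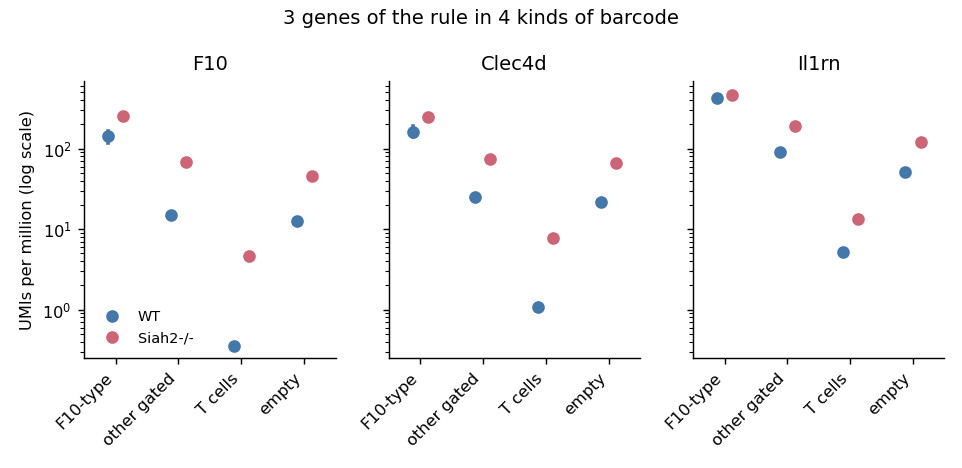
Level of 3 of the defining genes (y axis, CPM on a log scale) in F10-type cells, other gated cells, T cells and empty droplets (x axis) of the WT and Siah2-/- libraries; Poisson 95% intervals of the F10-type cells are drawn and are mostly smaller than the points. Each gene was highest in the F10-type cells of its library, and each was higher in Siah2-/- T cells and empty droplets than in those of WT.

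The 4 genes of the set did not mark all cells alike. All 4 were detected together in 18 of 91 WT and 168 of 427 Siah2-/- F10-type cells, or 19.8% and 39.3%, while 28 and 70 cells had 2 of them. WT cells also lay closer to the boundary. The margin over the next set had a median of 0.460 in WT and 1.05 in Siah2-/-, and was under 0.1 in 15 WT cells (16.5%) and 20 Siah2-/- cells (4.68%). The next set was Mgl2 with MHC class II for 54.9% of the WT and 65.3% of the Siah2-/- cells. Just inside the boundary, within a margin of 0.1, F10 stood at 27.6 CPM in 15 WT cells and 183 CPM in 20 Siah2-/- cells. Just outside, it stood at 65.7 CPM in 10 WT cells and 89.8 CPM in 27 Siah2-/- cells. Il1rn stood at 288 and 126 CPM just inside and at 310 and 305 CPM just outside. F10-type cells had a median of 9109 UMIs and 2466 genes in WT and of 8481 UMIs and 2371 genes in Siah2-/-.

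Against the other gated cells of the same library, 127 of 6547 genes (1.94%) were at least 1.5-fold higher in F10-type cells of both libraries, and 232 (3.54%) were at least 1.5-fold lower. Genes under a mean of 10 CPM over the groups compared were left out, among them 2 of the 16 listed hypoxia genes in the table and 1 of the 19 of glycolysis. A gene could pass this minimum only through the cells where it is high, and such genes are within the 127 and the 232. The 31 genes of the gate and the sets were left out too, and no test is given, since all genes belong to the cells that the rule divided. F10-type cells were high in 10 of 18 genes of glycolysis and in 7 of 14 genes of the response to low oxygen. They were also high in Nos2, which passed the CPM minimum only through these cells. Centred on the median gene, the counts were 175 and 187. F10-type cells were low in 5 of 17 genes of the type I interferon response and in cell cycle genes. Both had a set of their own in the rule, so this low level is partly built in, and no count is given for the cell cycle. The median log2 ratio over all genes tested was -0.09 in WT and -0.08 in Siah2-/-.

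Of 18 glycolysis genes tested, 10 were higher in F10-type cells of both libraries and 0 were lower, with median log2 ratios of 0.82 in WT and 0.64 in Siah2-/-. They ran from Slc2a1, the glucose transporter of the cell surface, over Hk3, Gpi1, Pfkl, Aldoa, Tpi1, Pgk1, Pgam1 and Eno1 to Slc16a3, which exports lactate. Slc16a3 stood at 371 CPM in WT and 441 CPM in Siah2-/- F10-type cells and at 99.4 and 243 CPM in the other gated cells. Aldoa, which encodes an aldolase, stood at 1827 and 2190 CPM, against 831 and 1273. Pkm, Gapdh and Ldha missed the count through the Siah2-/- library, with log2 ratios of 0.54, 0.52 and 0.52. In oxidative phosphorylation, 0 of 17 genes were past 1.5-fold in either direction.

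Of 14 hypoxia-induced genes tested, 7 were higher in F10-type cells of both libraries and 0 were lower, with medians of 0.94 and 0.81. Hilpda, which coats lipid droplets, stood at 130 CPM in WT and 242 CPM in Siah2-/- F10-type cells, against 19.5 and 53.2 CPM, and 1 cell held 23.4% of the WT UMIs. Egln3, whose promoter is printed above, stood at 42.0 and 53.6 CPM against 9.74 and 13.7. Bnip3, a receptor for the removal of mitochondria, had log2 ratios of 1.78 and 1.21. The others were Ero1l, Ndrg1, Pdk1 and Mif. Vegfa, the vascular growth factor that low oxygen induces, belonged to the list of growth factors and stood at 37.8 and 77.3 CPM against 9.26 and 28.8. Hif1a itself was at 108 and 167 CPM, with log2 ratios of 0.60 and 0.39 over the other gated cells.

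Nos2, the inducible nitric oxide synthase, was at 35.7 CPM in WT and 107 CPM in Siah2-/- F10-type cells, and at 2.26 and 16.1 CPM in the other gated cells. The log2 ratios were 3.98 and 2.73, and 1 cell held 23.5% of the WT UMIs. At 4000 UMIs per cell, it was detected in 11.0% (5.40 to 19.3) of the WT and 21.8% (18.0 to 26.0) of the Siah2-/- F10-type cells. In T cells of Siah2-/- that share was 0.245%, and in free RNA Nos2 stood at 2.34 and 12.2 CPM. Nos2 passed the CPM minimum only through the F10-type cells, where it is high. For this reason no count of the list of arginine and polyamine metabolism is given.

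Some secreted products were also enriched, with 2 of 10 matrix genes higher (Mmp12 and Adam8) and 1 lower (Sparc). The growth factors Vegfa and Inhba were higher too. Cxcl2, a neutrophil attractant, reached 441 and 816 CPM in F10-type cells against 109 and 280 CPM. Mmp12, the macrophage elastase, reached 57.8 and 325 CPM against 8.47 and 34.1. Inhba, a subunit of activin, reached 17.9 and 91.8 CPM against 4.21 and 9.13, but 1 cell held 47.1% of its WT UMIs. Inhba passed the CPM minimum only through the F10-type cells, where it is high, so no count of growth factors is given. Ccl5, Ccl24, Pf4 and Il1a were higher in both libraries, while Ccl2, Ccl4, Ccl8, Ccl12 and Ccl17 were lower. Among suppressive molecules, Cd274 and Pdcd1lg2, the ligands of PD-1, and Trem1 were higher in both, 3 of 12 genes tested. Trem1 stands in that list but encodes a receptor that amplifies inflammation of myeloid cells. The 10 most enriched genes, ranked by the smaller of both libraries' ratios with no cell over 20% of a gene's UMIs, were Egln3, Vegfa, Cxcl2, Slc7a11, Il7r, which encodes the interleukin 7 receptor, Pecam1, Mgarp, Akap7, Prelid2 and Cox4i2, the last a cytochrome oxidase subunit that responds to oxygen. Il7r stood at 14.7 and 59.6 CPM against 2.63 and 12.7. Il7r, Mgarp, Akap7 and Prelid2 passed the CPM minimum only through the F10-type cells, where they are high.

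The 10 genes with the lowest ratios held the cell cycle genes Hist1h2ap, Ube2c, Rrm2, Stmn1, Top2a and Cks1b. Top2a, which encodes a DNA topoisomerase, stood at 6.30 and 8.01 CPM against 60.2 and 26.7. Cycling cells had a set of their own in the rule, so this low level is partly built in. Top2a, Ube2c, Rrm2, Ccnb1 and Cdc20 also passed the CPM minimum only through the other gated cells, where they are high. For this reason no count of the S phase and G2/M lists is given. Hist1h2ap belongs to a histone family of near-identical copies, and its counts are uncertain. Among 17 type I interferon genes 5 were lower (Ifit1, Usp18, Mx1, Cmpk2 and Ifi44) and 0 were higher, and interferon-induced cells had a set of their own as well. Tmem176a and Tmem176b, a pair of neighbouring membrane protein genes, and Blnk, an adaptor of B cell and myeloid signalling, completed the 10 with Cmpk2, a mitochondrial nucleotide kinase. Blnk too passed the CPM minimum only through the other gated cells. With only F10, Clec4d and Il1rn in the set, Tmem176a had a ratio of -0.50 in the library where it was smaller in size, and the enriched gene Cox4i2 one of 0.35, both under 1.5-fold.

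**Figure D4:**
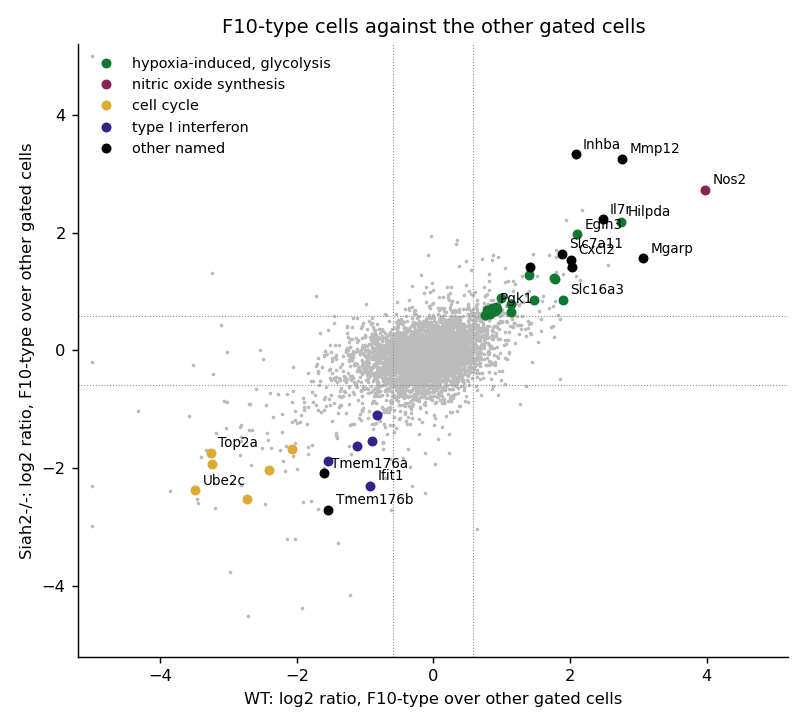
Log2 ratio of F10-type over other gated cells in WT (x axis) and Siah2-/- (y axis), 1 point per gene tested outside the rule; dotted lines mark 1.5-fold, and ratios beyond 5 are drawn at 5. The 7 hypoxia and 10 glycolysis genes that were enriched in both libraries are drawn, and lie in the upper right with Nos2, Mmp12 and Inhba, while the 5 depleted type I interferon genes and the cell cycle genes drawn lie in the lower left.

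Between the genotypes, 554 of 6354 genes (8.72%) were at least 1.5-fold higher in Siah2-/- F10-type cells and 469 (7.38%) were at least 1.5-fold lower. The interval lay beyond 0 for 355 and 292 of them. The shares of 8.72% and 7.38% belong beside each list count between the genotypes below. A gene could pass the CPM minimum only through the library where it is high, and such genes are within these counts. The sums behind these values held 952369 UMIs in WT and 3996162 UMIs in Siah2-/-, so the precision was set by the 91 WT cells. The median log2 ratio over all genes tested was -0.04.

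The z-score of the defining set, on which the cells were chosen, had a median of 1.07 in WT and 1.56 in Siah2-/- F10-type cells. Each WT cell was also set against the Siah2-/- F10-type cell nearest to it in that z-score, an alternative added after the data had been seen. The 91 Siah2-/- cells so matched had a median of 1.06. Of the same 6354 genes, 641 (10.1%) were at least 1.5-fold higher and 605 (9.52%) at least 1.5-fold lower in these than in WT. The matching fixes the defining genes, so no matched ratios are given for these. For other genes, values with this matching stand beside the results below as matched ratios.

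Siah2 itself gave 11 UMIs in WT and 61 UMIs in Siah2-/- F10-type cells, or 11.6 and 15.3 CPM, a log2 ratio of 0.40 (-0.54 to 1.48). The kit reads the 3′ end of transcripts, and which part of the gene was deleted is not stated here, so the genotype could not be checked from them. The library is Siah2-/- by its label. Siah2 lies at chr3:58674938-58692400 (GRCm38, minus strand).

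In arginine and polyamine metabolism, Amd1 passed the CPM minimum only through Siah2-/-, where it is high, and stood at 7.35 CPM in WT. No count or median of the list is therefore given between the genotypes. Nos2 had a ratio of 1.58 (1.07 to 2.13) and a matched ratio of 0.37 (-0.32 to 1.07), so its call did not hold in matched cells, where it stood at 46.2 CPM. Ass1, which with Asl rebuilds arginine from citrulline, stood at 344 and 536 CPM, with ratios of 0.64 and, matched, 0.66. Slc7a2, Azin1 and Amd1 were also at least 1.5-fold higher in Siah2-/-. The interval of Azin1 lay above 0, while those of Slc7a2 and Amd1 held 0.

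Of 14 hypoxia-induced genes, 6 were higher and 0 lower, with a median of 0.31. These were Hif1a, Egln1, Ero1l, Ndrg1, Hilpda and Ddit4, and the interval of Egln1 held 0. The median was 0.82 with z-scores taken within each library and 0.18 in matched cells. In matched cells 1 of the 14 was past 1.5-fold above and 0 below, where 10.1% and 9.52% of all genes were. That gene was Ddit4, an inhibitor of mTORC1, which stood at 32.6 CPM in WT, 79.8 CPM in Siah2-/- and 84.5 CPM in matched Siah2-/- cells. Hilpda had a ratio of 0.89 (0.62 to 1.17) and a matched ratio of 0.26 (-0.10 to 0.62). In glycolysis 3 of 18 genes were higher and 0 lower, with a median of 0.26. Pgk1, a kinase of the payoff phase, stood at 141 and 320 CPM, with ratios of 1.19 and, matched, 1.12. Pfkfb3, which drives phosphofructokinase, had 1.25 and 1.17, and Hk3 had 0.73 and 0.48. The gated cells outside the F10-type differed between libraries in these lists too, with medians of 0.50 for hypoxia and 0.54 for glycolysis.

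Of 10 matrix genes, 4 were higher and 2 lower in Siah2-/- F10-type cells, with a median of -0.02. Mmp13, a collagenase, was at 18.9 CPM in WT and 161 CPM in Siah2-/- F10-type cells, a log2 ratio of 3.09 (2.42 to 3.86) and a matched ratio of 3.24, and 1 cell held 27.8% of the WT UMIs. In the other gated cells it stood at 19.3 and 41.9 CPM. Mmp12 had a ratio of 2.49 (2.10 to 2.91) and a matched ratio of 1.49 (1.03 to 1.97), and 1 cell held 30.9% of its WT UMIs. Adam8 and Mmp19 were also higher, the latter with a matched ratio of 0.54 (-0.53 to 1.65), and Fn1, which encodes fibronectin, and Sparc were lower, but 1 cell held 48.0% of the WT UMIs of Sparc. Fn1 stood at 263 CPM in WT and 138 CPM in Siah2-/-, with ratios of -0.93 and, matched, -1.14.

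Lipid genes divided. Fabp5, a fatty acid binding protein, stood at 166 and 531 CPM, a ratio of 1.68 (1.44 to 1.92) and a matched ratio of 1.62. Plin2, the coat of lipid droplets, was at 154 and 356 CPM, and Abca1, which exports cholesterol, at 30.5 and 63.1 CPM. Abcg1 was also higher, while Spp1 and Gpnmb were lower. Spp1, which encodes osteopontin, was at 664 CPM in WT and 242 CPM in Siah2-/-, with 29.6% of the latter in 1 cell. Its free RNA stood above both, at 970 and 778 CPM. Inhba was at 17.9 and 91.8 CPM, with ratios of 2.36 (1.66 to 3.16) and, matched, 1.51. Vegfa had 1.03 (0.53 to 1.57) and, matched, 0.76.

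In the interleukin 1 family 4 of 7 genes were higher and 0 lower, with a median of 0.64. They were Il1a, Il1b, Il1r2, the decoy receptor, and Nlrp3, an inflammasome sensor. Il1b stood at 1571 CPM in WT and 2455 CPM in Siah2-/-, with ratios of 0.64 (0.57 to 0.72) and, matched, 0.35. In matched cells 1 of the 7 was past 1.5-fold above, Casp1, which matures interleukin 1, and 1 below, Il1a. Its ratio turned from 0.85 to -0.82 (-2.16 to 0.43), with an interval that held 0, and 1 cell held 29.4% of its WT UMIs. Cd274 had a ratio of 0.98 (0.67 to 1.32) and a matched ratio of 0.56 (0.16 to 0.97). Entpd1, which degrades extracellular ATP, Trem1, which is activating, and Lilr4b were the other genes of the list of suppressive molecules that were higher, and Nt5e, which makes adenosine, was lower, 4 and 1 of 13 with a median of 0.28. In matched cells 4 were higher and 2 lower, with a median of 0.34. The medians in the other gated cells were 0.59 for the interleukin 1 family and 0.66 for the suppressive molecules.

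Chemokines went both ways. Cxcl2 had a ratio of 0.89 (0.74 to 1.04) and a matched ratio of 0.59, and Ccl5 had 0.67 (0.60 to 0.73) and, matched, 0.37. Ccl4, Ccl8 and Ccl24 were the others above, but in Siah2-/- 1 cell held 23.4% of the UMIs of Ccl24 and another 22.1% of those of Ccl8. Ccl24 turned direction in matched cells, from 1.11 to -2.31 (-4.73 to -0.51). The monocyte attractants Ccl7 and Ccl12 had ratios of -0.94 and -1.11, with 40.4% of the WT UMIs of Ccl12 in 1 cell, and Pf4 had -0.70. Matched, these ratios were -0.52, -0.96 and -0.34, so that Ccl7 and Pf4 were no longer past 1.5-fold. Cxcl10, an interferon-induced ligand of CXCR3, was at 635 and 413 CPM, and at 580 and 1014 CPM in the other gated cells. Ccl17, a ligand of CCR4, had a ratio of -3.73, with 89.5% of the WT UMIs in 1 cell. Ccl17 passed the CPM minimum only through WT, where it is high, so no count of chemokines is given.

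Of the monocyte genes, 2 were higher and 3 lower of 11. Ly6c2, a surface antigen of inflammatory monocytes, stood at 1425 and 871 CPM in F10-type cells, with ratios of -0.71 and, matched, -0.73, and at 883 and 1464 CPM in the other gated cells. Ccr2, the receptor through which monocytes enter tissue, was at 431 and 275 CPM, with a matched ratio of -0.50, and Cx3cr1, the fractalkine receptor, at 84.0 and 27.8 CPM. Itgal, an integrin chain of leukocytes, was among the 2 higher, at 24.2 and 64.3 CPM. Apoe, the apolipoprotein E gene, was at 15366 and 8646 CPM, with ratios of -0.83 and, matched, -0.41. Cebpb, a transcription factor of myeloid cells, had ratios of 1.11 and, matched, 0.91. Of 17 type I interferon genes 2 were lower (Ifit1 and Ddx58) and 0 higher, and 1 of 17 interferon gamma genes was higher (Gbp2). Over all genes tested 8.72% were higher and 7.38% lower, so these counts lay near that share and mark no trait of the lists. Immediate early and heat shock genes, which can respond to handling of tissue, had 5 higher and 0 lower of 13, Fos, Egr1, Ier3, Dusp1 and Hspa1a, and a median of 0.43. In the other gated cells that median was 0.94. The part of handling in the results was not tested.

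Ranked by the bound of the interval nearest 0, the 10 genes highest in Siah2-/- F10-type cells held Nkg7, Gzmb and Gzmc, genes of cytotoxic granules. Nkg7 was at 12.6 CPM in WT and 82.6 CPM in Siah2-/- F10-type cells, while the free RNA held it at 1057 and 1341 CPM and T cells at 2648 and 3090 CPM. Gzmb was at 14.7 and 71.1 CPM, with free RNA at 1121 and 1646 CPM. When free RNA was taken to make up 5% of each sum and subtracted, nothing was left of Nkg7, Gzmb and Gzmc in WT, and no ratio could be formed. Ifitm1, an interferon-induced membrane protein, was at 738 and 2297 CPM, with free RNA at 479 and 1517 CPM. Between the libraries the other gated cells had ratios of 1.53 for Nkg7, 1.63 for Gzmb, 0.0028 for Gzmc and 2.12 for Ifitm1. The remaining genes were Fabp5, Il7r, Grina, Rhov, Arrdc3 and Eno1b, the last a close copy of Eno1 and so uncertain. Il7r had a ratio of 2.02 (1.24 to 2.91) and a matched ratio of 2.15. Grina, a membrane protein that limits cell death, stood at 242 and 642 CPM, with ratios of 1.41 and, matched, 0.74. In the other gated cells these 6 genes had ratios from 0.72 for Grina to 2.66 for Rhov. Gzmc and Rhov passed the CPM minimum only through Siah2-/-, where they are high, and stood at 5.25 and 8.40 CPM in WT. Rhov fell from 2.11 to 0.82 over all barcodes with at least 2000 UMIs, and Nkg7 from 2.71 to 1.06 with a gate that allowed 1 excluded gene. With z-scores within each library, Fabp5 stood at 2.38 and Grina at 2.06.

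The 10 lowest were led by Tmem176b, at 96.6 CPM in WT and 15.3 CPM in Siah2-/- F10-type cells, a ratio of -2.66 (-3.15 to -2.18) and a matched ratio of -2.61. In the other gated cells it stood at 281 and 99.3 CPM, a ratio of -1.50. Tmem176a had -1.83. Qpct, which encodes a glutaminyl cyclase, stood at 28.4 and 4.75 CPM, with ratios of -2.58 and, matched, -3.07. Ms4a7, a macrophage membrane protein, stood at 701 and 339 CPM, with ratios of -1.05 and, matched, -0.84, and -0.55 with a gate that allowed 1 excluded gene. The others were Cx3cr1, Lacc1, Apex1, Slc25a4, Bzw2 and Fam208a, with ratios from -1.18 to -1.93. In the other gated cells the 10 genes had ratios from -1.50 for Tmem176b to -0.62 for Qpct, except Fam208a at 0.26 (-0.16 to 0.66). Qpct, Tmem176a, Bzw2 and Fam208a passed the CPM minimum only through WT, where they are high, and stood at 4.75, 9.76, 5.51 and 5.00 CPM in Siah2-/-. Cx3cr1 moved from -1.60 to -0.76 with the gate that allowed 1 excluded gene, Fam208a from -1.92 to -0.80 with z-scores within each library, and Bzw2 to a matched ratio of -4.22. Slc25a4 stood at -0.42 after thinning to 4000 UMIs, and the matched ratio of Apex1 was -0.60 (-1.25 to 0.03).

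**Figure D5:**
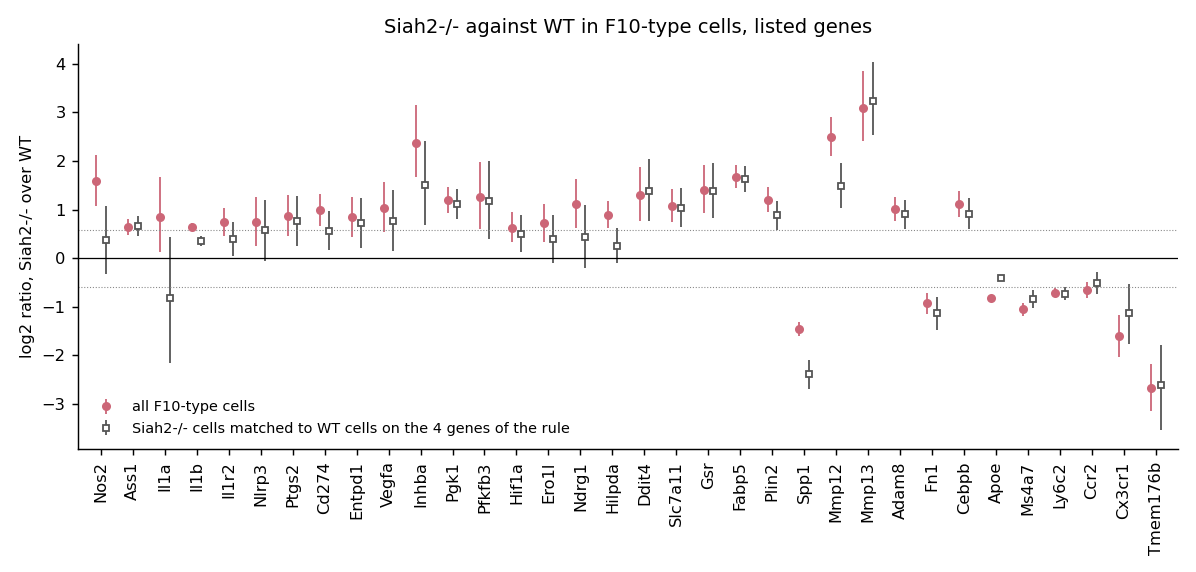
Log2 ratio of Siah2-/- over WT (y axis) in F10-type cells for 34 listed genes (x axis), in all F10-type cells and with each WT cell matched to a Siah2-/- cell on the 4 defining genes; bars are 95% counting intervals and dotted lines mark 1.5-fold. Matching left Mmp13 at 3.24 and Fabp5 at 1.62, while Nos2 moved from 1.58 to 0.37 and Hilpda from 0.89 to 0.26.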

How the data were processed

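Single-cell RNA was captured by the 10x 3′ kit from 1 WT and 1 Siah2-/- library, and the authors processed reads with bcl2fastq and Cell Ranger on mm10 (GRCm38), without versions in the labels. The authors deposited UMI counts for 27998 genes and 737280 barcodes per library, and a table of 14654 genes by 10075 cells of natural log values, ln(1 + UMIs per 10000), after removing the bottom and top 2% of cells by genes and cells over 10% mitochondrial. The defining set held a further gene that is not reported here. Gate and sets were computed on the log values, and all levels on summed counts. The libraries held 98517832 (WT) and 85396790 (Siah2-/-) UMIs, with medians of 11439.5 and 8700 per cell, and 34 cell barcodes occurred in both libraries. Doublets were not called.

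Levels are counts per 1000000 UMIs (CPM) with exact Poisson intervals, and shares carry Clopper-Pearson 95% intervals. Genes were compared at a mean of at least 10 CPM over the groups compared, and counted as higher or lower at 1.5-fold. Named genes were the 10 highest and 10 lowest of each comparison, no cell holding over 20% of the UMIs, plus examples from 40 lists. The gene sets, lists and rule were chosen with earlier results of these data known. Scripts ran on Python 3.11.15, numpy 2.4.6, scipy 1.17.1 and pandas 2.3.3 and were tested on simulated data. Promoters came from RefSeq on GRCm38.p6.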

Additional observations from a re-analysis of the deposited data

Results flagged for a closer look

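Barcodes outside the table of normalized values held F10-type cells too. Among barcodes with at least 2000 UMIs that the authors' table leaves out, 1016 WT and 354 Siah2-/- barcodes passed the macrophage gate. Of these, 90 in WT and 126 in Siah2-/- were F10-type, a share of 8.86% (7.18 to 10.8) in WT and 35.6% (30.6 to 40.8) in Siah2-/-. These barcodes had median depths of 5464.5 and 3995 UMIs. They entered the results above only in the alternative over all barcodes with at least 2000 UMIs, for the share and for gene ratios such as that of Rhov. In them, the 10 genes highest in Siah2-/- F10-type cells all had ratios of the same direction, and 8 of the 10 lowest did. Cx3cr1 and Slc25a4 were the exceptions, with log2 ratios of 0.45 and 0.66. Of the 10 genes most enriched in F10-type cells 10 kept their direction, and of the 10 most depleted 9, Blnk being the exception.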

How the results depend on the processing

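With 1 library per genotype, the values cover counting error only, and no library could be left out. No paired analysis was possible because each genotype has 1 library. The log2 ratio of the share of F10-type cells, 2.60, was 0.62 with z-scores within each library, 3.27 with a margin of at least 0.5, 2.21 with only F10, Clec4d and Il1rn in the set and 1.93 over all cells, and above 0 in all 14 alternatives. Genes higher and lower in Siah2-/- (554 and 469) numbered 888 and 882 after thinning to 4000 UMIs, 1620 and 1780 with no CPM minimum, and 355 and 292 with an interval beyond 0, and 830 were lower with a margin of at least 0.5. Genes enriched and depleted in F10-type cells (127 and 232) numbered 357 and 744 with no CPM minimum, and 349 were depleted with a gate of 3 macrophage markers. The median of the S phase genes, -0.70, was 0.035 with matched cells. The cause was not tested, except that without the CPM minimum more genes enter. Matching shared 392 of the 554 higher and 263 of the 469 lower genes. The marker gate, a gate allowing 1 excluded gene, the matching and the required interval were chosen after seeing the data. Of the other summary values, 74 stayed within 1.5 times the reported count or within the interval of the share. Depth limits genes with few UMIs in the 91 WT cells.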

Other observations

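Genes of blood clotting were measured beside F10. Of 12 listed clotting and fibrinolysis genes 4 passed the CPM minimum between the genotypes, F7 only through Siah2-/-, where it is high, so no count or median of the list is given. F7, which encodes factor VII, Thbs1, which encodes thrombospondin 1, and Plaur, the urokinase receptor, were at least 1.5-fold higher in Siah2-/- F10-type cells. F7 stood at 7.35 CPM in WT and 20.0 CPM in Siah2-/- F10-type cells, and at 0.737 and 3.85 CPM in the other gated cells. Thbs1 stood at 106 and 204 CPM, with a log2 ratio of 0.95 (0.65 to 1.26) and a matched ratio of 0.52, against a ratio of 2.33 in the other gated cells. Plaur had a ratio of 0.67 and a matched ratio of 0.37, against 1.38. F13a1, which encodes the A chain of factor XIII, was higher in F10-type than in other gated cells of both libraries, at 98.7 and 123 CPM against 57.4 and 75.5. All 4 genes were above the other gated cells in both libraries, but Thbs1 and Plaur by less than 1.5-fold in Siah2-/-.

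Genes of iron and of the response to oxidants formed another group, with 3 of 11 enriched in F10-type cells of both libraries and 0 depleted. Hmox1, which breaks down haem, stood at 185 and 258 CPM against 89.0 and 97.7, and 1 cell held 29.5% of its WT UMIs. Fth1, the heavy chain of ferritin, stood at 17807 and 23321 CPM against 11733 and 11750. Slc7a11 was the third. Between the genotypes, Slc7a11 and Gsr, which encodes glutathione reductase, were the 2 of 11 genes higher in Siah2-/-. Gsr stood at 39.9 and 106 CPM, with ratios of 1.40 and, matched, 1.38.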
